A study of Homo sapiens with 8 samples.

Results

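Transcripts of 39 genes that act in G2 and mitosis were compared in keratinocytes with and without the mitochondrial poisons oligomycin and antimycin A (O/A). The genes were chosen by function, from cyclin and CDK1 control through to cytokinesis, but with earlier results of these data known. All 39 are among the 61806 genes of the deposited count table, and all 39 were among the 14893 genes with at least 10 counts in 4 or more libraries, on which the tests were run. The member with the fewest reads was NUSAP1, with 23 counts in its lowest library, and 37 of the 39 had at least 100 counts in every library. The cells, labelled WT, were of the line N/TERT-1, human epidermal keratinocytes made immortal in culture. Poly(A) RNA was sequenced from 4 libraries of ethanol-treated cells, the vehicle control, and from 4 libraries of O/A-treated cells. Both groups were the same genotype and grew in the same serum-free medium, and treatment lasted 4 hours. Oligomycin inhibits ATP synthase and antimycin A inhibits complex III of the respiratory chain, so the pair stops ATP production by oxidative phosphorylation. The design answers how the transcripts of these genes differed after O/A, and each group's 4 libraries came from independent experiments of 1 cell line.

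Cells that have copied their DNA pass through G2 and enter mitosis when cyclin B bound to CDK1 becomes active. Polo-like and Aurora kinases then build the spindle, kinetochores tie chromosomes to it, and the anaphase-promoting complex (APC/C) destroys securin and cyclin B once every kinetochore is attached. Most genes of this program are transcribed late in the cycle through the MuvB complex with B-MYB and FOXM1, are repressed through the DREAM complex in resting or arrested cells, and share promoter elements called the cell cycle genes homology region (CHR) and the CCAAT box, the site of NF-Y. In bulk RNA, fewer cells in G2 and mitosis and less of each transcript per cell cannot be told apart, and this holds for every value that follows.

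Library totals lay between 17210404 and 20999927 counts in ethanol (median 17976302) and between 17689760 and 19263046 in O/A (median 18270044). Basal keratinocyte markers (KRT5, KRT14, TP63 and 5 others) summed to 4357 to 4654 FPKM with ethanol and to 3954 to 4113 FPKM with O/A, and all 8 were detected. Of 6 fibroblast markers 5 were below 0.1 FPKM in every library, as were 4 of 6 melanocyte markers. Differentiating keratinocyte markers summed to 20.02 to 21.8 FPKM with ethanol and to 21.5 to 23.0 FPKM with O/A. Of these 7 markers 4 were below 0.1 FPKM in every library, and most of the sum was KRT10 and IVL, which moved in opposite directions. KRT10 lay at 9.58 to 10.9 FPKM with ethanol and 12.9 to 14.5 FPKM with O/A. IVL lay at 9.02 to 10.99 FPKM with ethanol and 7.13 to 8.23 FPKM with O/A.

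After O/A, 33 of the 39 genes fell, or 84.6%, against 18.9% of all genes tested that were called lower. A gene was called when its Benjamini-Hochberg adjusted p, taken over all genes tested with the quasi-likelihood test of edgeR, did not exceed 0.05, together with a log2 fold change (O/A over ethanol, log2FC) beyond 0.25 in size. No member was called higher by edgeR or by DESeq2, against 15.8% of all genes tested that edgeR called higher, and 1 member, CKS2, had a higher level at an unadjusted p below 0.05. The 6 members that were not called were CDK1, CKS2, AURKB, PLK4, PTTG1 and NUF2. The median log2FC over the 39 genes was -0.54, with quartiles of -0.79 and -0.44, whereas the median over all genes tested was -0.00040. In level, the median member was 31.2% lower in O/A. By adjusted p alone, 36 members were lower and 1 was higher, against 27.7% and 26.0% of all genes tested. A fall beyond 0.5 on the log2 scale was called for 24 members, against 9.7% of all genes tested, a rise beyond 0.5 for no member, against 8.0%, and a fall beyond 1 for 4 members (CCNF, PLK1, KIF20A and CCNB1), against 2.79%. In 34 members every O/A library lay below every ethanol library, a separation found for 24.8% of all genes tested.

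Summed over the 39 genes, the ethanol libraries held 3515 to 3593 CPM (counts scaled to library size, with TMM factors), with a mean of 3549 ± 38.4 (SD, n = 4). The O/A libraries held 2330 to 2377 CPM, with a mean of 2356 ± 23.5 (SD, n = 4), which is 33.6% lower. Per length, the summed level went from 909 ± 18.1 FPKM with ethanol to 614 ± 8.71 FPKM with O/A (SD, n = 4). The replicate libraries lay close together, since the median coefficient of variation of a member's CPM was 3.67% in ethanol and 4.42% in O/A. The members lie on 15 chromosomes. Their log2FC was nearly unrelated to gene length (Spearman rho -0.085 across the 39 genes) and to ethanol level (rho -0.027), both given as descriptions across genes that share the same 8 libraries.

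**Figure D1:**
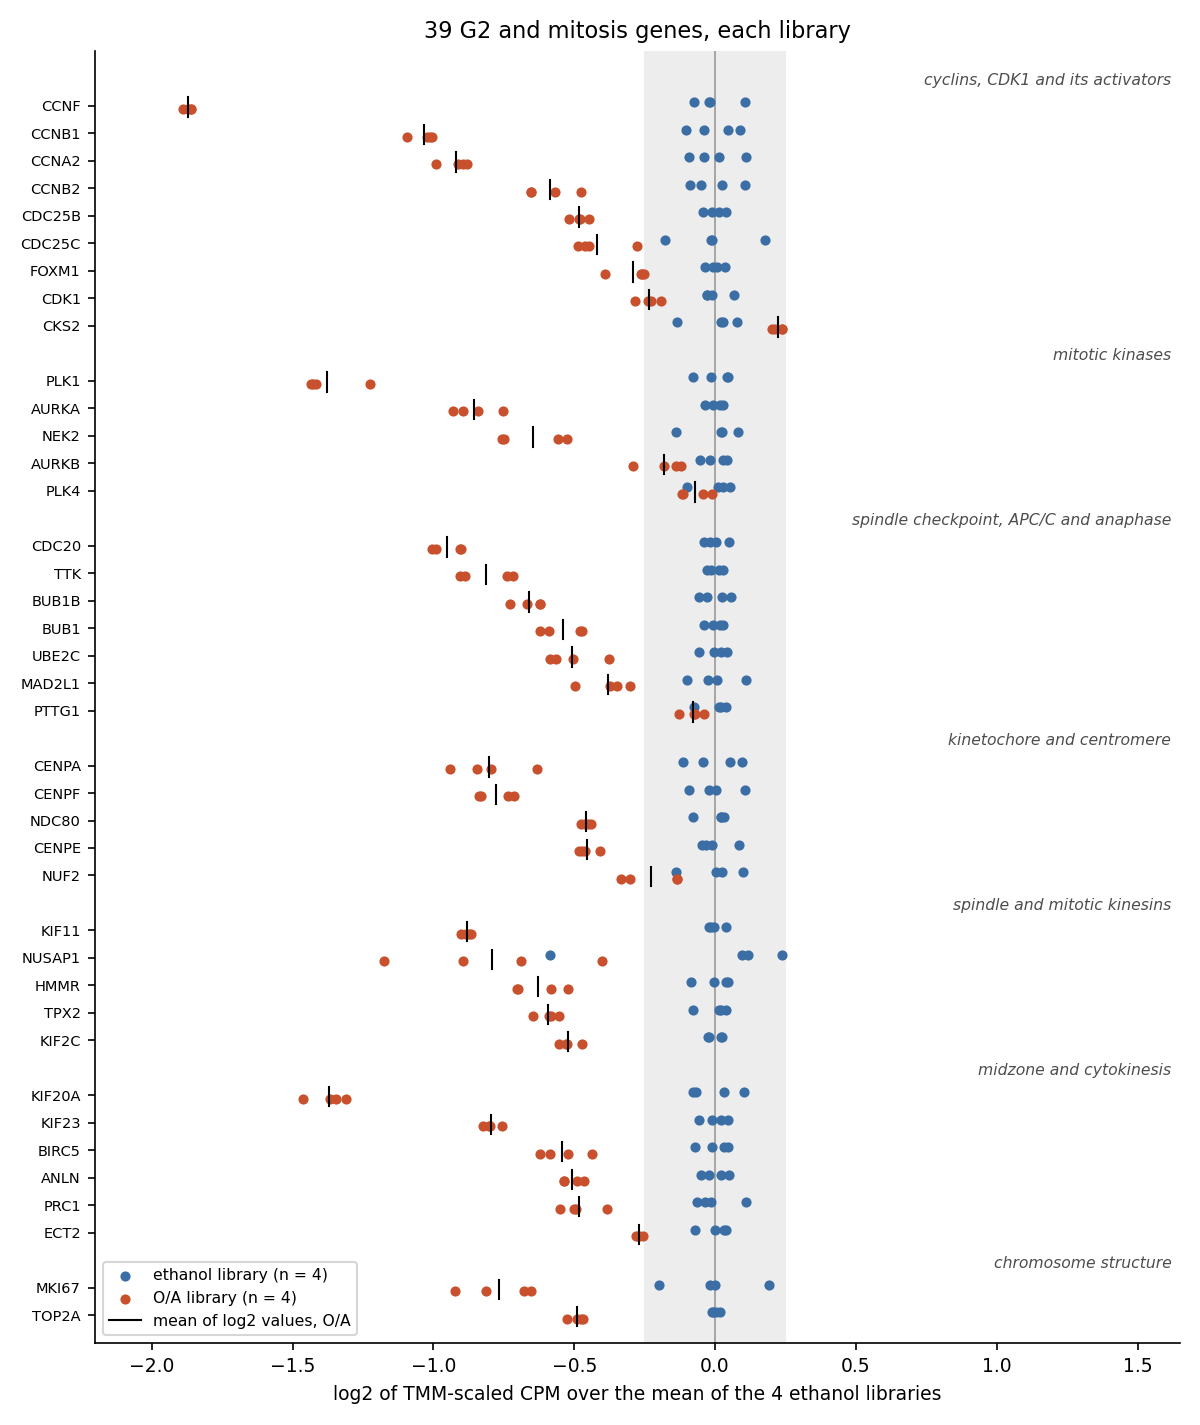
Each of the 39 genes in each of the 8 libraries, as the log2 of its TMM-scaled CPM over the mean of the 4 ethanol libraries, grouped by role, with blue points for ethanol, orange points for O/A, a black tick for the O/A mean and a gray band from -0.25 to 0.25. The O/A points lie left of the band in most rows, farthest for CCNF at -1.87. Those of CKS2 lie toward the right but inside the band, at 0.23, and the points of PLK4 and PTTG1 mix with those of ethanol.

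The promoters of the 3 genes that fell most and of the 3 at the other end of the list are shown because they let the extremes of the response be read beside the elements that mark G2 and mitosis promoters. They run from 200 bases before to 20 bases after the RefSeq start on GRCh38.p14, written on the strand of the gene. Capitals mark the CHR (TTTGAA or TTCGAA) and CCAAT on either strand. They lie at chr16:2429247-2429466 (CCNF), chr16:23678689-23678908 (PLK1), chr5:138178912-138179131 (KIF20A), chr5:160421655-160421874 (PTTG1), chr4:127880693-127880912 (PLK4) and chr9:89310995-89311214 (CKS2), all on the plus strand.
CCNF: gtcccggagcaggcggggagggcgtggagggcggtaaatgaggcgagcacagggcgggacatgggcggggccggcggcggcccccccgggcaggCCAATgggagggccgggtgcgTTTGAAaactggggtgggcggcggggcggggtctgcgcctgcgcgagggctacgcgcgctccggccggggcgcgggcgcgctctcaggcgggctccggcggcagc
PLK1: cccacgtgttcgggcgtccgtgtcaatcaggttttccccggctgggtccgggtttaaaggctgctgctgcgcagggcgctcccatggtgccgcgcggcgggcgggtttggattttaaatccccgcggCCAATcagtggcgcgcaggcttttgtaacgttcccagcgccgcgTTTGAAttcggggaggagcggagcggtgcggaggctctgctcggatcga
KIF20A: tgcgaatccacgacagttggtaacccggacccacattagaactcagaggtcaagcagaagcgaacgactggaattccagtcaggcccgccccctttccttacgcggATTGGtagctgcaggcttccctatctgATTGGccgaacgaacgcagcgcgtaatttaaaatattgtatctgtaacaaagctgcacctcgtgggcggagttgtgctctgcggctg
PTTG1: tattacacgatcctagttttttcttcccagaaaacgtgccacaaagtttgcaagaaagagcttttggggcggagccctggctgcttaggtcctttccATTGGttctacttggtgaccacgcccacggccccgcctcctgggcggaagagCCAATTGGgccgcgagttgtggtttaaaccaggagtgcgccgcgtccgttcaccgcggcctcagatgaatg
PLK4: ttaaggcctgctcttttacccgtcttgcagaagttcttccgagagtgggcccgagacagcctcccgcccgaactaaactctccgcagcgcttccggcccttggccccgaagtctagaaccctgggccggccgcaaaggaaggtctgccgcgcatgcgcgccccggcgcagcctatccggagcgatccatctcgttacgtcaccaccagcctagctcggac
CKS2: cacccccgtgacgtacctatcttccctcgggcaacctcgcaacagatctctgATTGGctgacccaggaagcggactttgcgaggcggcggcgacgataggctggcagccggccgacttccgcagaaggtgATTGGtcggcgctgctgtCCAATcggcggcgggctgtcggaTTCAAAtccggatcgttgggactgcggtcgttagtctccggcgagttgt
CCNF had a CHR from -85 to -80 and a CCAAT from -106 to -102, counted from the start at +1. Beyond the stretch shown, CCNF had another CHR, from -233 to -228, and CCAAT from -250 to -246, -239 to -235 and -210 to -206. PLK1 had a CHR from -29 to -24 and a CCAAT from -73 to -69. It also held TTTAAA, a CHR variant, from -148 to -143 and from -88 to -83. KIF20A had a pair of CCAAT boxes but no CHR, although TTTAAA, a variant of the element, stood nearer its start. CKS2, whose level did not fall, also held both elements, with a CHR on the opposite strand and 3 CCAAT boxes. PTTG1 had 3 CCAAT matches, of which a pair overlap on opposite strands, no CHR, and, like KIF20A, the variant TTTAAA nearer its start (-29 to -24). The stretch shown for PLK4 held neither element, and its CHR match lies beyond it, from +39 to +44.

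Of the 9 genes for cyclins, CDK1 and its activators, 7 fell, with a median log2FC of -0.48 over the 9. The largest fall of all members was that of CCNF, which encodes the F-box cyclin of an SCF ubiquitin ligase and does not act by binding a CDK (ENSG00000162063, chr16:2429394-2458854, GRCh38). CCNF stood at 43.2, 39.5, 38.1 and 39.5 CPM in the ethanol libraries and 10.8, 11.05, 10.96 and 11.03 CPM in the O/A libraries. The groups were far apart and the O/A libraries were nearly equal (log2FC -1.87, SE 0.0618, edgeR adjusted p = 5.86e-31). CCNB1, the main partner of CDK1 in mitosis (ENSG00000134057, chr5:69167135-69178245, GRCh38), stood at 131, 124, 135 and 118 CPM in the ethanol libraries and 63.0, 62.5, 63.4 and 59.6 CPM in the O/A libraries. Every O/A library held less than every ethanol library, by a margin much wider than the spread within a group (log2FC -1.03, SE 0.0380, edgeR adjusted p = 9.93e-28). CCNA2, which serves CDK2 in S phase and CDK1 in G2, stood at 97.5, 91.2, 87.8 and 84.6 CPM in the ethanol libraries and 48.6, 49.1, 45.5 and 47.9 CPM in the O/A libraries. Here too the groups did not overlap (log2FC -0.92, SE 0.0419, edgeR adjusted p = 1.24e-24). CCNB2, the other B-type mitotic cyclin, fell less (log2FC -0.58, SE 0.0542, edgeR adjusted p = 2.35e-13).

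CDK1, the kinase these cyclins activate, was barely lower. It stood at 126, 135, 128 and 126 CPM in the ethanol libraries and 113, 106, 109 and 109.8 CPM in the O/A libraries. The groups did not overlap and the adjusted p was small, but the log2FC missed the size required for a call (log2FC -0.23, SE 0.0323, edgeR adjusted p = 1.71e-08). It passed at -0.27 with quantile normalization, at -0.28 and -0.27 with log2 FPKM values, and at -0.25 among genes with a mean FPKM of at least 5. CDC25B and CDC25C, phosphatases that remove the inhibitory phosphates of CDK1, both fell (log2FC -0.48, SE 0.0332, edgeR adjusted p = 6.83e-18 for CDC25B, log2FC -0.42, SE 0.118, edgeR adjusted p = 0.00208 for CDC25C). CDC25C rested on 80 to 151 counts per library, against 1428 to 2526 for CDC25B. FOXM1, the forkhead factor that activates many genes of this list, was close to the limit for a call (log2FC -0.29, SE 0.0382, edgeR adjusted p = 5.15e-09). Without O/A replicate 2, whose 61.0 CPM was the lowest, its log2FC was -0.25, just short of that limit.

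CKS2, a small subunit that binds CDK1 complexes, was the only member with a positive log2FC. It stood at 47.1, 45.2, 45.4 and 40.6 CPM in the ethanol libraries and 52.6, 51.6, 51.3 and 52.6 CPM in the O/A libraries. Each O/A library exceeded each ethanol library, as for 22.8% of all genes tested, but the difference missed the size required for a call (log2FC 0.23, SE 0.0452, edgeR adjusted p = 2.97e-05). Without ethanol replicate 1, the highest of its group, CKS2 was called higher at 0.26.

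Of the 5 mitotic kinases, 3 fell, and the 5 ranged from among the largest falls of the list to a log2FC of -0.07. PLK1, which drives mitotic entry, spindle assembly and cytokinesis (ENSG00000166851, chr16:23677656-23690367, GRCh38), stood at 76.7, 73.5, 76.5 and 70.3 CPM in the ethanol libraries and 31.8, 27.6, 27.5 and 27.8 CPM in the O/A libraries. All O/A libraries lay far below the lowest ethanol library, with replicate 1 somewhat above the other 3 (log2FC -1.37, SE 0.0471, edgeR adjusted p = 3.11e-30). AURKA, the kinase of centrosome maturation and spindle poles, stood at 104, 99.2, 103 and 101 CPM in the ethanol libraries and 56.8, 54.7, 53.4 and 60.3 CPM in the O/A libraries. Its groups were as cleanly separated (log2FC -0.85, SE 0.0381, edgeR adjusted p = 1.97e-25). NEK2, which parts the centrosomes, fell (log2FC -0.65, SE 0.0716, edgeR adjusted p = 5.18e-11).

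AURKB, the kinase of the chromosomal passenger complex, differed far less than AURKA. It stood at 42.1, 40.3, 41.6 and 39.3 CPM in the ethanol libraries and 37.1, 37.6, 33.4 and 36.0 CPM in the O/A libraries. They did not overlap, but the difference was too small for a call (log2FC -0.18, SE 0.0486, edgeR adjusted p = 0.00142). PLK4, the kinase of centriole duplication, stood at 39.9, 38.8, 35.9 and 39.3 CPM in the ethanol libraries and 35.6, 37.4, 35.5 and 38.2 CPM in the O/A libraries. Its groups overlapped and it was not called (log2FC -0.07, SE 0.0487, edgeR adjusted p = 0.214). With log2(FPKM + 0.1) and limma the adjusted p was 0.0393 at a log2FC of -0.11, still short of the size for a call.

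Of the 7 genes of the spindle checkpoint, APC/C and anaphase, 6 fell, with a median log2FC of -0.54 over the 7. CDC20, the activator of the APC/C that the checkpoint holds in check (ENSG00000117399, chr1:43358981-43363203, GRCh38), stood at 103, 98.0, 99.6 and 96.7 CPM in the ethanol libraries and 53.2, 49.4, 49.97 and 52.9 CPM in the O/A libraries. The O/A mean was 48.2% lower and the groups did not overlap (log2FC -0.95, SE 0.0380, edgeR adjusted p = 2.17e-27). TTK, the kinase that starts checkpoint signaling, fell (log2FC -0.81, SE 0.0502, edgeR adjusted p = 1.34e-19). BUB1B and BUB1, the kinetochore-bound checkpoint proteins, fell (log2FC -0.66, SE 0.0471, edgeR adjusted p = 2.86e-17 for BUB1B, log2FC -0.54, SE 0.0419, edgeR adjusted p = 5.73e-16 for BUB1). MAD2L1, which binds and inhibits CDC20, fell (log2FC -0.38, SE 0.0459, edgeR adjusted p = 1.04e-09), and so did UBE2C, the ubiquitin-conjugating enzyme of the APC/C (log2FC -0.51, SE 0.0435, edgeR adjusted p = 1.63e-14).

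PTTG1 encodes securin, the inhibitor of separase that the APC/C destroys at anaphase. It stood at 38.5, 39.03, 38.3 and 36.1 CPM in the ethanol libraries and 36.1, 34.8, 37.0 and 36.0 CPM in the O/A libraries. The groups overlapped and it was not called (log2FC -0.08, SE 0.0481, edgeR adjusted p = 0.181). With log2(FPKM + 0.1) and limma the adjusted p was 0.00851 at a log2FC of -0.12, still short of the size for a call.

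Of the 5 kinetochore and centromere genes, 4 fell, with a median log2FC of -0.46 over the 5. CENPA, the histone H3 variant that marks centromeres, stood at 17.4, 18.6, 19.1 and 16.5 CPM in the ethanol libraries and 10.3, 11.5, 9.95 and 9.31 CPM in the O/A libraries. Its ethanol and O/A libraries were well apart (log2FC -0.79, SE 0.0789, edgeR adjusted p = 1.97e-12). CENPF, a large protein of the outer kinetochore, fell (log2FC -0.78, SE 0.0401, edgeR adjusted p = 5.97e-22), as did CENPE, the kinesin that moves chromosomes to the spindle equator (log2FC -0.46, SE 0.0381, edgeR adjusted p = 5.87e-15). NDC80, which grips microtubules at the kinetochore, fell (log2FC -0.46, SE 0.0462, edgeR adjusted p = 3.25e-12). NUF2, its partner in the same complex, stood at 29.2, 27.8, 27.3 and 24.8 CPM in the ethanol libraries and 24.9, 21.7, 22.1 and 24.8 CPM in the O/A libraries. The groups overlapped slightly and the difference missed the size for a call (log2FC -0.22, SE 0.0608, edgeR adjusted p = 0.00169). NUF2 passed at -0.26 without ethanol replicate 4, at -0.25 without O/A replicate 4 and at -0.27 with log2 FPKM values and a pseudocount of 0.1.

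All 5 spindle and mitotic kinesin genes fell, with a median log2FC of -0.62. KIF11, the motor that pushes spindle poles apart, stood at 110.2, 114, 111 and 109.6 CPM in the ethanol libraries and 60.7, 60.3, 61.1 and 59.6 CPM in the O/A libraries. The O/A libraries were tightly grouped, well below the ethanol libraries (log2FC -0.88, SE 0.0349, edgeR adjusted p = 1.51e-27). HMMR, a spindle-pole protein, fell (log2FC -0.62, SE 0.0437, edgeR adjusted p = 1.27e-17), as did TPX2, which activates Aurora A on the spindle (log2FC -0.59, SE 0.0291, edgeR adjusted p = 1.10e-23), and KIF2C, a kinesin that takes microtubules apart (log2FC -0.52, SE 0.0427, edgeR adjusted p = 3.56e-15). NUSAP1, a microtubule-bundling protein of the spindle, stood at 1.99, 3.197, 3.25 and 3.53 CPM in the ethanol libraries and 1.32, 2.26, 1.85 and 1.61 CPM in the O/A libraries. Per length this is 0.843 ± 0.192 FPKM with ethanol and 0.480 ± 0.110 FPKM with O/A (SD, n = 4), the lowest level of the list. NUSAP1 fell (log2FC -0.76, SE 0.190, edgeR adjusted p = 6.54e-04), but ethanol replicate 1 lay among the O/A libraries.

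All 6 genes of the midzone and cytokinesis fell, with a median log2FC of -0.52. KIF20A, the kinesin that carries the passenger complex to the midzone (ENSG00000112984, chr5:138178719-138187723, GRCh38), stood at 56.4, 52.6, 59.2 and 52.3 CPM in the ethanol libraries and 21.4, 21.7, 22.2 and 20 CPM in the O/A libraries. The groups were far apart and the libraries close together within each (log2FC -1.37, SE 0.0522, edgeR adjusted p = 2.83e-28). KIF23, the kinesin of centralspindlin, fell less (log2FC -0.79, SE 0.0359, edgeR adjusted p = 3.44e-25). BIRC5, or survivin, a subunit of the passenger complex, fell (log2FC -0.54, SE 0.0471, edgeR adjusted p = 3.31e-14), and so did ANLN, the anillin scaffold of the contractile ring (log2FC -0.51, SE 0.0267, edgeR adjusted p = 1.98e-22), and PRC1, the midzone microtubule bundler (log2FC -0.48, SE 0.0804, edgeR adjusted p = 1.19e-06). ECT2, the exchange factor that turns on RhoA for furrowing, was the smallest fall that was called (log2FC -0.27, SE 0.0345, edgeR adjusted p = 2.90e-09). Without ethanol replicate 3 its log2FC was -0.25, just short of the limit.

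The 2 genes of chromosome structure fell. MKI67, which encodes Ki-67, the coat protein of mitotic chromosomes and a common marker of proliferation, stood at 294, 291, 257 and 337 CPM in the ethanol libraries and 156, 184, 168 and 187 CPM in the O/A libraries. The groups did not overlap, although the ethanol libraries were spread widely (log2FC -0.76, SE 0.09997, edgeR adjusted p = 5.89e-04). TOP2A, the topoisomerase that untangles sister chromatids, stood at 281, 286, 283 and 281 CPM in the ethanol libraries and 204, 201, 197 and 204 CPM in the O/A libraries. Its libraries were close together within each group (log2FC -0.49, SE 0.0267, edgeR adjusted p = 8.49e-22).

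Per length, the members' ethanol levels ran from 0.843 FPKM for NUSAP1 to 79.5 FPKM for ANLN, with a median of 16.02 FPKM. ANLN, TPX2, CKS2, CCNB1, UBE2C and CDC20 were the highest in ethanol, at 79.5, 76.8, 73.4, 53.0, 52.7 and 50.03 FPKM. In O/A, CKS2 had the highest level of the list at 83.0 FPKM, above ANLN at 54.2 FPKM and TPX2 at 49.3 FPKM. CCNF went from 6.45 ± 0.329 to 1.71 ± 0.0222 FPKM and PLK1 from 15.8 ± 0.659 to 5.92 ± 0.428 FPKM (SD, n = 4).

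**Figure D2:**
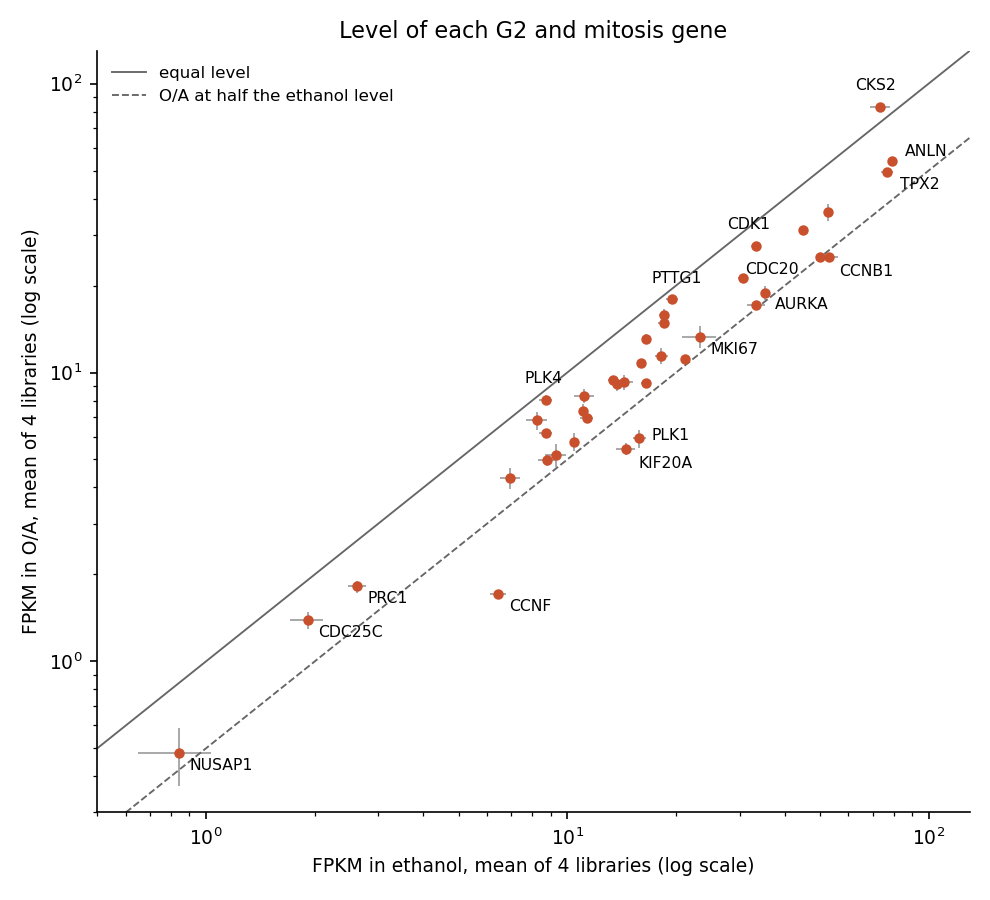
Mean FPKM of each of the 39 genes in O/A (vertical, log scale) against ethanol (horizontal, log scale), with bars of 1 SD over 4 libraries, a solid line at equal level and a dashed line where O/A is lower by 1 on the log2 scale. CKS2 is the gene above the solid line, at 83.0 against 73.4 FPKM, and CCNF, PLK1 and KIF20A lie clearly below the dashed line.

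Members that are paralogs or partners in function were formed into 8 pairs, and the ratio of each pair was compared between groups with a two-sided exact permutation test (smallest possible p 0.0286). In 6 of the 8 pairs the ratio was lower in all 4 O/A libraries than in any ethanol library. Each of the 6 had an exact p of 0.0286 and an adjusted p of 0.0381 over the 8 pairs. Since 0.0286 is the smallest possible p, the adjusted p of any pair depends on how many other pairs also reached it. The log2 ratio of PLK1 to PLK4 changed by -1.29 ± 0.0841 (SE), that of CDC20 to PTTG1 by -0.87 ± 0.0356 and that of AURKA to AURKB by -0.67 ± 0.0453. The ratio of KIF20A to KIF23 changed by -0.56 ± 0.0680, that of CCNB1 to CCNB2 by -0.45 ± 0.0348 and that of NDC80 to NUF2 by -0.23 ± 0.0734. CDC25B and CDC25C were not shown to differ, with a change in ratio of -0.10 (from -0.26 to 0.06 at 2 SE, exact p = 0.286, adjusted p = 0.286). Neither were BUB1 and BUB1B, with a change of 0.11 (from -0.0090 to 0.24, exact p = 0.114, adjusted p = 0.131), seen in 3 of 4 O/A libraries.

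**Figure D3:**
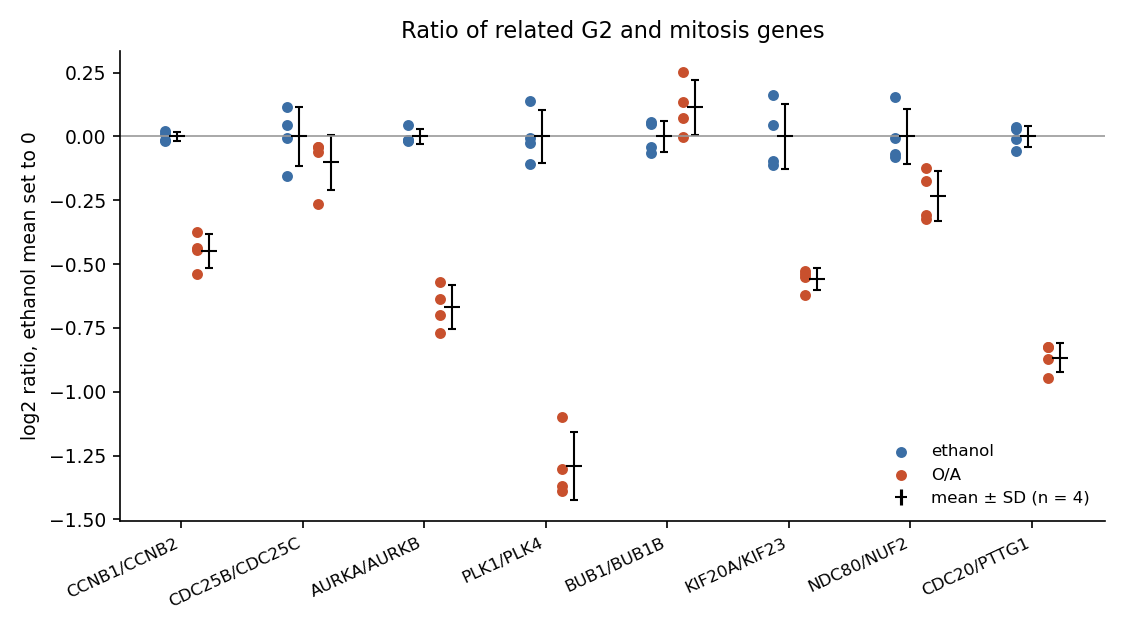
Log2 ratio of TMM-scaled CPM + 0.5 in 8 pairs of related genes for each ethanol (blue) and O/A (orange) library, with the ethanol mean set to 0 and black bars for mean ± SD of 4 libraries. The O/A points lie below all ethanol points in every pair except CDC25B/CDC25C and BUB1/BUB1B, and lowest for PLK1/PLK4 at a mean of -1.29.

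RefSeq promoters (GRCh38.p14, from 250 bases before to 50 after the start) were found for 33 of the 39 members, and not for AURKA, BIRC5, FOXM1, TPX2, TTK and UBE2C. A CHR, TTTGAA or TTCGAA on either strand, was found in 23 of the 33, or 69.7% (95% Wilson interval 52.7 to 82.6%), against 16.6% of all 27305 promoters in the table and 11.2% of the 10700 promoters of tested genes. Counting only matches within 50 bases of the start, it was in 54.5% of the members and 5.05% of all promoters. When the variants CTTGAA and TTTAAA were added, a choice made after seeing the data, the shares were 87.9% and 32.5%. CCAAT on either strand was in 24 of the 33 members (72.7%) against 35.7% of all promoters, and 2 or more were in 48.5% against 11.3%. CCAAT was also common in the related lists, being in 58.7% of 121 promoters of other G2 and mitosis genes and in 66.7% of 24 G1/S promoters, where 2 or more were in 31.4% and 41.7%. The CHR was in 44.6% and 8.33% of those promoters. Both elements were present in 54.5% of the members and 6.58% of all promoters. A match is a description of letters in this window, not a site of binding.

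Members with and without the elements overlapped widely in log2FC. The 23 members with a CHR had a median log2FC of -0.58, ranging from -1.87 (CCNF) to 0.23 (CKS2), and the 10 without had a median of -0.50, ranging from -1.37 (KIF20A) to -0.08 (PTTG1). The 16 members with at least 2 CCAAT matches had a median of -0.70, the 8 with 1 match a median of -0.64 and the 9 with none a median of -0.46. These medians are given as descriptions.

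**Figure D4:**
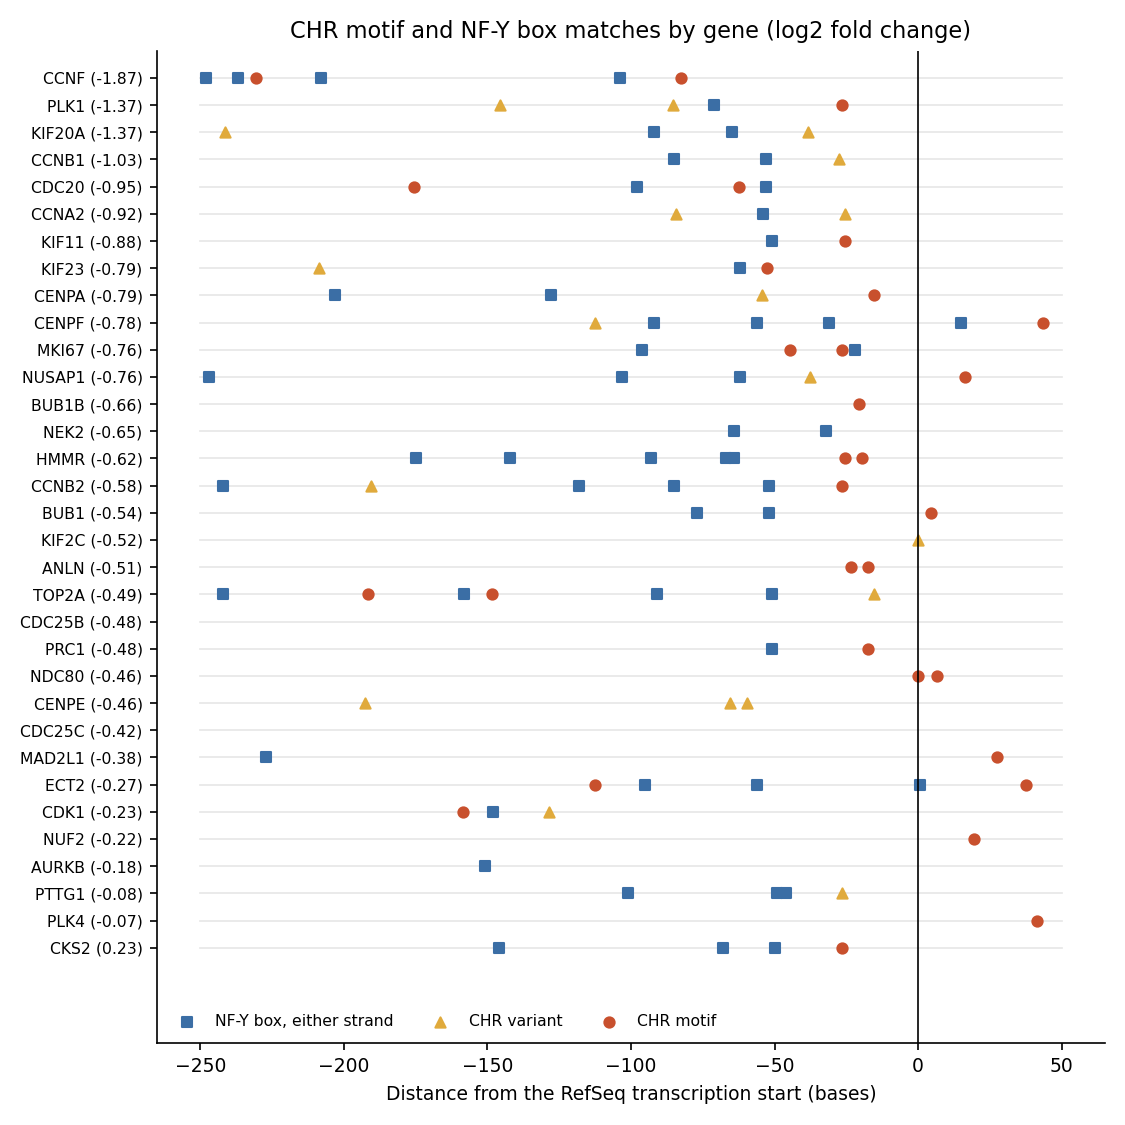
Distance in bases from the RefSeq start to each CHR match (orange circles), CHR variant (yellow triangles) and CCAAT match, the box bound by NF-Y (blue squares), in 33 promoters ordered by log2FC, which is printed beside each name. CHR matches gather near the start, just upstream of it in some promoters, as at PLK1, and downstream in others, as at CENPF and NUF2. They occur from CCNF at -1.87 down to CKS2 at 0.23.

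Outside the 39, a wider list of 142 other G2 and mitosis genes was tested, with a median log2FC of -0.21. Of the 142, 67 fell (47.2%, against 18.9% of all genes tested), 8 rose and 67 were not called. Called higher were 15.8% of all genes tested, against these 8 of 142 in the wider list. Its 32 other kinesin, spindle and cytokinesis genes included 27 that fell and 1 that rose (CEP152, a centriole protein, 0.52), with a median of -0.56. PSRC1, a microtubule regulator, fell most among these (log2FC -1.71, adjusted p = 4.82e-22, edgeR). Of 9 other checkpoint and passenger complex genes 6 fell (median -0.35), with HASPIN, the kinase that places the passenger complex, at -1.20. Of 18 cohesin, separase and condensin genes 8 fell (median -0.20), with ESPL1, which encodes separase, at -0.999. Among 31 other kinetochore and centromere genes 11 fell and 1 rose (median -0.09), with HJURP, the chaperone that deposits CENPA, at -1.36 and MIS12, a kinetochore subunit, at 0.71. Of 17 APC/C genes 4 fell (median -0.07), of which FBXO5, the APC/C inhibitor, fell most at -0.63. That 23.5% of these 17 were lower is near the 18.9% of all genes tested, so it is not a result about the APC/C list.

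Of the 14 genes that control CDK1 or G2 arrest 6 fell, or 42.9%, against 18.9% of all genes tested, and 3 rose (median -0.04). The 3 of 14 is near the 15.8% of all genes tested that were called higher, so it is not a result about the list. WEE1 and PKMYT1, the kinases that inhibit CDK1, fell by 1.02 and 0.57 on the log2 scale, and CDC25A, a phosphatase that opposes them, fell by 0.54. GTSE1, a protein of G2 that restrains p53, went from 9.97 to 3.86 FPKM (log2FC -1.32, edgeR adjusted p = 2.01e-26). GADD45A, a stress-induced inhibitor of CDK1, rose from 63.5 to 104 FPKM (log2FC 0.75, edgeR adjusted p = 1.07e-22). CDKN1A, which encodes the CDK inhibitor p21, rose from 187 to 221 FPKM (log2FC 0.29, edgeR adjusted p = 1.53e-13), but at 0.14 with quantile normalization and 0.24 with log2 FPKM values it was short of a call. SFN, the 14-3-3 sigma protein that holds CDK1 in the cytoplasm, fell by 0.28 on the log2 scale.

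Among 21 genes of the MuvB complex, E2F, RB and NF-Y families 5 fell and 3 rose (median -0.02). The 23.8% that were lower is near the 18.9% of all genes tested, and the 3 of 21 that were higher is near the 15.8%, so these counts are not a result about the list. E2F7, a repressor of E2F target genes, rose from 15.7 to 50.7 FPKM (log2FC 1.73, SE 0.0325, edgeR adjusted p = 6.69e-38). On the log2 scale, E2F8, its closest relative, fell by 0.59, E2F2, an activator, by 0.72 and RBL1, the p107 subunit of DREAM, by 0.48. The MuvB subunits LIN9 and LIN54 stood at log2FC -0.13 and 0.05, and E2F1 at 0.17, and none of them was called. MYBL2, which encodes B-MYB, RB1 and the NF-Y subunit NFYA stood at 0.03, 0.03 and 0.02, were not called, and changed sign between alternative settings.

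For comparison, 18 of 30 genes of G1/S and DNA replication fell, with a median log2FC of -0.27. That is 60.0%, against 47.2% of the wider list of G2 and mitosis genes and 18.9% of all genes tested. None was called higher by edgeR, against 15.8% of all genes tested. DESeq2 called 1 higher, and 4 had a higher level at an unadjusted p below 0.05. CCND1, the cyclin of early G1, fell most, from 80.5 to 39.4 FPKM (log2FC -0.99, edgeR adjusted p = 4.37e-35).

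The exons of 24 members overlap no other annotated gene, and in 6 members more than 10% of exonic bases are shared. Taken over all overlapping genes together, the overlap was 86.8% for NUSAP1 and 61.9% for PRC1. In both, the overlapping genes included an unnamed gene on the same strand and others. NUSAP1 and PRC1 had mean ethanol levels of 0.843 and 2.62 FPKM. The overlap was 15.9% for FOXM1, 12.8% for PLK1, 11.8% for CCNF and 10.2% for BUB1B. How reads in shared exons were assigned is not given in the sources used here, so these values are uncertain, and the part of the overlap in them was not tested. Without these 6 genes, a choice made after seeing the data, 27 of 33 members were called lower.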

How the data were processed

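RNA was measured in 8 libraries of N/TERT-1 keratinocytes, 4 ethanol and 4 O/A, grouped by their titles. The labels give no dose or time, and the 4 hours come from a legend of the study. Per the labels, the authors aligned reads with HISAT2 2.0.1 to GRCh38.p13 and counted them per gene with HTSeq 0.6.1. The annotation release and the strand setting are not given in the sources used here. The authors deposited raw counts and FPKM values, and these FPKM are within 0.005 of those computed from the counts. Their DESeq2 comparison table (mean normalized count, fold change, log2 fold change, standard error, test statistic, p and adjusted p) was not used. All sample columns were mapped, and every row named a gene by its identifier, with 20417 blank symbols.

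From the counts, edgeR 4.0.16 (R 4.3.3) with TMM scaling, a robust quasi-likelihood fit and Benjamini-Hochberg adjustment tested genes with at least 10 counts in 4 or more libraries. Called means an adjusted p of at most 0.05 and an absolute log2 fold change above 0.25. Pair ratios were tested with scipy 1.17.1. Alternatives were DESeq2 1.42.0, median-ratio and quantile scaling, limma 3.58.1 on log2(FPKM + 0.1) and log2(FPKM + 1), other filters and thresholds, a replicate block, and each library left out. Scripts were tested on simulated data. Within a group, libraries differed beyond sampling noise (chi-square per degree of freedom 1.76 to 5.71), so none was counted as a copy. The p-values measure the spread between 4 experiments in 1 cell line. Intervals on motif shares cover counting error only.

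The members and lists were chosen with earlier results of these data known. Every member may be named. Of each wider list the text names the called gene with the largest rise and that with the largest fall, and 16 regulators whatever their result. Exon overlap was read from GENCODE 44, in which 38 of the 39 members have the same start and end, and promoters from RefSeq.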

Additional observations from a re-analysis of the deposited data

Results flagged for a closer look

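In 3 of 78 sets of 4 libraries (39 genes in each of 2 groups), 1 library lay farther from the other 3 than Dixon's 95% limit allows, where chance gives about 1 in 20, or 3.9. FOXM1 was at 61.0 CPM in O/A replicate 2, against 66.7 to 67.1 CPM in the other O/A libraries. PLK1 was at 31.8 CPM in O/A replicate 1, against 27.5 to 27.8 CPM in the others. NDC80 was at 44.4 CPM in ethanol replicate 3, against 47.4 to 47.8 CPM in the others.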

How the results depend on the processing

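On the whole list with the threshold of 0.25, 32 to 35 members were called lower under every alternative but the filter at a mean FPKM of 5, which tests fewer members and gave 30. By adjusted p alone 36 were lower, and at a threshold of 0.5 there were 24. Leaving out each library in turn gave 32 to 34. Of 620 values for single members (16 alternatives each, fewer where a filter removed a gene), 610 kept direction and call, 2 lost the call (ECT2, FOXM1), 8 gained it (CDK1, CKS2, NUF2) and none changed direction. Members called higher numbered 1 by adjusted p alone and 0 to 1 with a library left out. Of the wider list, 40 were called lower at a threshold of 0.5, and those called higher numbered 5 with a mean FPKM of at least 5, 15 by adjusted p alone and 4 at a threshold of 0.5. MYBL2 went to -0.0079 with quantile normalization and to -0.017 with either log2 FPKM value. RB1 went to -0.011 with quantile normalization and to -0.012 with either log2 FPKM value. NFYA went to -0.032 and -0.028 with log2 FPKM (pseudocount 0.1 and 1) and ranged from -0.027 (without O/A replicate 4) to 0.065 with a library left out. The median over all genes tested was -0.043 and -0.028 with log2 FPKM (pseudocount 0.1 and 1) and -0.0031 with quantile normalization. The cause of these changes of sign was not tested. CDKN1A lost its call in 3 alternatives. The pair count was 6 with FPKM ratios and with log2(CPM + 1), while with a library left out (smallest p 0.0571) or in a paired test (0.125) no pair can pass. With the replicate number as a block, 33 members were called lower, 0 higher, and 67 and 8 of the wider list, so no count changed. Over all genes tested, libraries sharing a number showed little shared deviation (correlations 0.0389, -0.0021, -0.023 and 0.0675). These correlations cannot decide whether a shared number means a shared experiment, and the labels do not say. Low counts limit NUSAP1 (23 to 75 per library) and CDC25C (80 to 151) most, and for NUSAP1 the part of its exon overlap in this was not tested.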
